A study of Mus musculus with 6 samples.

Results

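The epithelial-mesenchymal switch genes are 10 genes of 20706 measured: Cdh1, Epcam and Cldn6, which mark epithelial cells, Cdh2, Vim and Fn1, which mark mesenchymal cells, and Snai1, Snai2, Zeb1 and Zeb2, which encode transcription factors that act on the switch between those states. They were chosen by name, with earlier results of these data known. Each was matched to its RefSeq transcript in the files, where all 10 have 1 row. RNA-seq was available for 6 libraries of V6.5 cells, murine embryonic stem cells (ESCs) of a C57BL/6-129 background, all grown on irradiated feeder fibroblasts, passaged off them once, and infected with lentivirus that carried a small hairpin RNA (shRNA). All libraries were made after selection of infected cells with puromycin, per the labels at 0.5 ug/ml for 48 hours and then 1 ug/ml for 48 hours, where the study's methods give another concentration. The hairpin was against GFP as the control (1 library), against SMC1, a cohesin subunit (1 library), against CAPH2, a condensin II subunit (CAPH2 #1 and #2), or against SMC2, a subunit of both condensins (SMC2 #1 and #2). Each of the paired libraries carries a hairpin of its own, and neither the GFP nor the SMC1 library has a replicate. The comparisons address how lower cohesin or condensin levels affect gene expression in ESCs.

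In an epithelial cell, E-cadherin joins neighbouring cells through adherens junctions, EPCAM adds a further adhesion molecule, and claudins seal tight junctions. In an epithelial-mesenchymal transition, SNAIL and ZEB proteins bind E-box sequences in promoters of epithelial genes and repress them, N-cadherin takes the place of E-cadherin, and the intermediate filament vimentin and the matrix protein fibronectin increase. The microRNAs of the miR-200 family hold down ZEB proteins in epithelial cells. Murine ESCs express E-cadherin and EPCAM, grow as compact colonies, and lose E-cadherin when they form mesoderm.

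Promoter sequences are shown because SNAIL and ZEB proteins bind the E-box CAGGTG, which was searched on both strands (CAGGTG or CACCTG) in the 250 bases before each start site. RefSeq promoter sequences (build GRCm38.p6) were matched for 5 of the 10 genes, Epcam, Cldn6, Snai1, Vim and Zeb2. Cdh1, Cdh2, Fn1, Snai2 and Zeb1 were not matched. Epcam had 2 E-boxes, Cldn6 and Snai1 had 1 each, and Vim and all 4 Zeb2 start sites had 0. Of 32817 promoters of this length, 17.2% held at least 1 E-box and 2.07% held 2 or more. Capitals mark the E-box in the 3 sequences that hold one, written 5′ to 3′ with the start site after the last base. The Zeb2 window is that of the start site of the row in the files. A match in these letters is a description and says nothing about whether a factor was bound.
Epcam (chr17:87635729-87635978, plus strand): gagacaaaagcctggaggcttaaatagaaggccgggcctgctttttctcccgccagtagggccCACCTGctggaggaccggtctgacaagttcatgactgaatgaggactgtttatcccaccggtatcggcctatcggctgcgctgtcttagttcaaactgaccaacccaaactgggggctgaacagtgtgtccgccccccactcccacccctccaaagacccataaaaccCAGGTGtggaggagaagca
Cldn6 (chr17:23679115-23679364, plus strand): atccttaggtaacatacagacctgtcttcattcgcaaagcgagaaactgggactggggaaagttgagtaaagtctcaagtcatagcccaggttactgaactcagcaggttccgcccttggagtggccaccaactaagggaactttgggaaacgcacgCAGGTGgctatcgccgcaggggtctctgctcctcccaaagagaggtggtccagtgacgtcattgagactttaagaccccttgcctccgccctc
Snai1 (chr2:167537945-167538194, plus strand): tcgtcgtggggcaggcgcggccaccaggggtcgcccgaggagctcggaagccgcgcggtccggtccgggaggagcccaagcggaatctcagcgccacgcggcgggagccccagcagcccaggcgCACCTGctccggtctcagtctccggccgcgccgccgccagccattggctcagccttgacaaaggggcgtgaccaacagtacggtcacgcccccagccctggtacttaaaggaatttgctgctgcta
Zeb2 (chr2:45113280-45113529, minus strand): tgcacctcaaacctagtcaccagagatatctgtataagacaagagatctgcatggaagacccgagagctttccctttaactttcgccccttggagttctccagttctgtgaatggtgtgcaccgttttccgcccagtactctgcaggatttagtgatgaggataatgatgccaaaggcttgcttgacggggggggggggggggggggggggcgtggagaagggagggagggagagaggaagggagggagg

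In the control library the RNAs of Cdh1, Epcam and Cldn6 and those of Vim and Fn1 were all abundant, while those of the transcription factors were low. Bulk RNA cannot show that they came from the same cells, and a part of feeder fibroblast RNA in Vim and Fn1 was not tested. Levels are given as RPKM (reads divided by exon length and by the reads of the library), which can be compared between genes. With the GFP hairpin, Vim was the highest at 214.8 RPKM, followed by Fn1 at 156.8, Cdh1 at 134.1, Epcam at 120.9 and Cldn6 at 64.0. Below these stood Cdh2 at 4.36, Zeb1 at 4.06, Snai1 at 2.93, Snai2 at 0.67 and Zeb2 at 0.55. Cdh1 RNA was thus 30.8 times as abundant as Cdh2 RNA, and Zeb1 RNA 7.37 times as abundant as Zeb2 RNA. Snai2, Snai1 and Zeb2 rested on 29, 100 and 108 counts in this library, so their control levels were the least precise. The depth was 18823248 to 23324537 reads per library.

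With the SMC1 hairpin 2 genes stood out, Cdh2 and Zeb2, while Cdh1 and Epcam were at 86.8% and 98.8% of their control level. Of the 8 members that reached 1 RPKM in the control library, 1 (Cdh2) was at least 2-fold higher and 0 were at least 2-fold lower. Over all 15538 transcripts that passed this minimum, 6.49% were at least 2-fold higher and 8.17% at least 2-fold lower. Snai2 and Zeb2 did not pass that minimum. Under a minimum of 10 counts on average over the libraries, which all 10 members passed, 2 of 10 (Cdh2 and Zeb2) were at least 2-fold higher, against 12.2% of 18153 transcripts. Averaged over hairpins, 0 of 8 members were 2-fold changed with CAPH2 (background 0.985% in either direction) and 0 of 8 with SMC2 (0.702%). Under the count minimum, Zeb2 was the 1 member of 10 that was 2-fold higher, both with CAPH2 (2.1%) and with SMC2 (1.52%). With a pseudocount of 1 RPKM, Zeb2 was below 2-fold in both (log2 changes of 0.64 and 0.57). The 3 comparisons share the GFP library, and a control with no replicate allows no p-value.

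**Figure D1:**
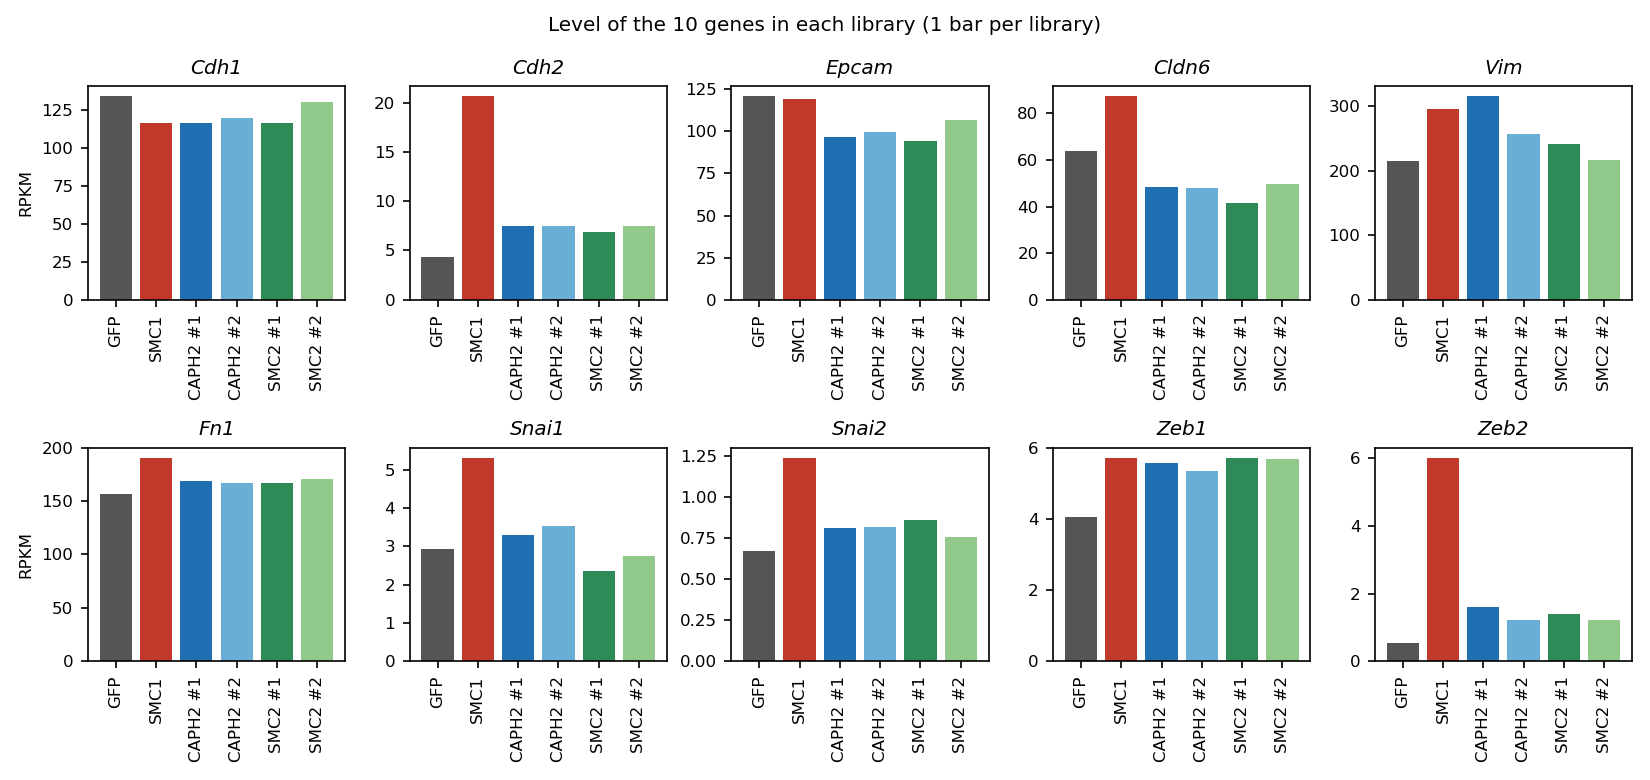
RPKM (y axis, from 0) of each of the 10 genes in each of the 6 libraries, 1 bar per library. Cdh2 reached 20.6 RPKM and Zeb2 6.02 RPKM with SMC1, above the other 5 libraries, and for both genes GFP was the lowest bar.

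Cdh1 (NM_009864, mm9 chr8:109127268-109194146, plus strand) encodes E-cadherin, the calcium-dependent adhesion protein that holds epithelial and ESC colonies together. Its level was 134.1 RPKM with GFP, 116.3 with SMC1, 116.4 and 120.0 with CAPH2 #1 and #2, and 116.6 and 130.2 with SMC2 #1 and #2. GFP was the highest library, and SMC1 was the lowest by a margin (116.34 against 116.38 in CAPH2 #1) far within counting error. The fold over GFP was 0.868 with SMC1 (95% exact binomial interval from the counts, 0.845 to 0.891). The mean log2 change was -0.18 ± 0.031 (SD, n = 2 hairpins) with CAPH2 and -0.12 ± 0.11 with SMC2. The spread over the SMC2 hairpins was about as large as their mean change. Intervals and SDs of this kind are used throughout, and the intervals cover counting error only.

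Epcam (NM_008532, chr17:88035319-88050467, plus strand) encodes the epithelial cell adhesion molecule, and its promoter is the sequence above with 2 E-boxes. It stood at 120.9 RPKM with GFP, 119.4 with SMC1, 96.4 and 99.8 with CAPH2, and 94.2 and 106.7 with SMC2. GFP and SMC1 lay together above all 4 condensin libraries. The fold with SMC1 was 0.988 (0.950 to 1.03), an interval that includes no change, while the log2 change was -0.30 ± 0.036 with CAPH2 and -0.27 ± 0.13 with SMC2.

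Cldn6 (NM_018777, chr17:23816332-23819407, plus strand) encodes claudin 6, a tight junction protein of embryonic epithelia. Its level was 64.0 RPKM with GFP, 87.4 with SMC1, 48.6 and 47.8 with CAPH2, and 41.5 and 49.6 with SMC2. SMC1 was the highest library and the 4 condensin libraries were the lowest, with GFP between them. The log2 change was 0.45 with SMC1 (0.36 to 0.53), -0.41 ± 0.017 with CAPH2 and -0.50 ± 0.18 with SMC2. Relative to Cdh1 within the same library, Cldn6 was 47.7% with GFP, 75.1% with SMC1 and 35.6 to 41.7% in the condensin libraries, a ratio on which the scaling of libraries has no effect. The 3 epithelial members therefore had 3 different orders of the libraries.

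Cdh2 (NM_007664, chr18:16747386-16967558, minus strand) encodes N-cadherin, the classical cadherin of mesenchymal and neural cells. Its level was 4.36 RPKM with GFP, 20.6 with SMC1, 7.45 and 7.50 with CAPH2, and 6.82 and 7.43 with SMC2, from 436 counts in GFP and 1844 in SMC1. The libraries fell into 3 levels that did not overlap, GFP lowest, the 4 condensin libraries close together, and SMC1 highest. The fold with SMC1 over GFP was 4.73 (4.26 to 5.27). The log2 change was 0.78 ± 0.0074 with CAPH2 and 0.71 ± 0.088 with SMC2. Counting intervals of the single libraries were wider than these SDs and all excluded no change. They were 0.60 to 0.94 and 0.61 to 0.96 with CAPH2, and 0.47 to 0.82 and 0.60 to 0.95 with SMC2. Against the mean of the 4 condensin libraries, which does not use the GFP library, SMC1 was 2.83-fold higher. Over all transcripts with at least 10 counts on average, 8.59% were at least 2-fold higher in that contrast, and the members among them were Cdh2 and Zeb2.

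The ratio of the cadherins within a library followed Cdh2. Cdh2 RNA was 3.25% of Cdh1 RNA with GFP, 17.7% with SMC1, 6.40% and 6.25% with CAPH2, and 5.85% and 5.71% with SMC2. The fold change of this ratio over GFP was 5.46 with SMC1 and 1.76 to 1.97 in the condensin libraries. Cdh1 remained the more abundant cadherin RNA with SMC1, at 5.64 times the level of Cdh2.

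**Figure D2:**
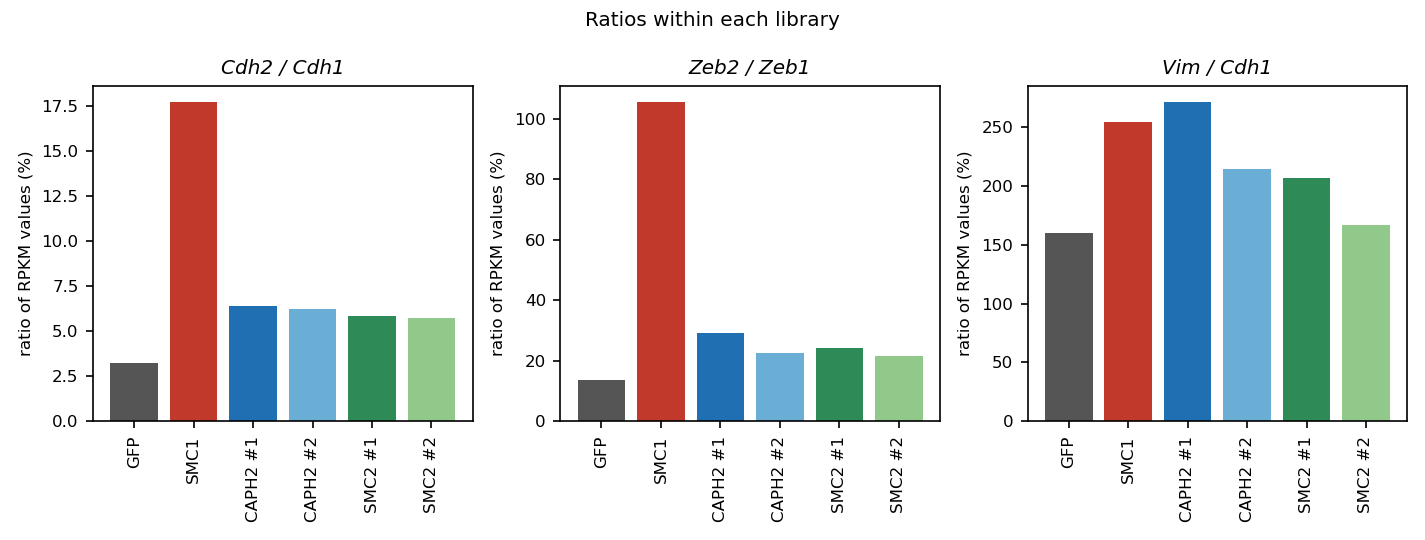
Ratio of RPKM values within each library, in percent (y axis, from 0), for Cdh2 over Cdh1, Zeb2 over Zeb1 and Vim over Cdh1. SMC1 had the highest Cdh2 to Cdh1 ratio (17.7%) and Zeb2 to Zeb1 ratio (105.6%), while the Vim to Cdh1 ratio was highest in CAPH2 #1 (271.3%).

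Vim (NM_011701, chr2:13495938-13504453, plus strand) encodes vimentin, the intermediate filament of mesenchymal cells and fibroblasts. Its level was 214.8 RPKM with GFP, 295.9 with SMC1, 315.7 and 257.6 with CAPH2, and 241.3 and 217.3 with SMC2. CAPH2 #1 was the highest library, above SMC1, and SMC2 #2 lay next to GFP with a fold of 1.01 (0.981 to 1.04). The log2 change was 0.46 with SMC1 (0.42 to 0.50), 0.41 ± 0.21 with CAPH2 and 0.092 ± 0.11 with SMC2. The CAPH2 hairpins differed from each other by more than their counting intervals, 0.56 (0.52 to 0.59) against 0.26 (0.22 to 0.31) on the log2 scale.

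Fn1 (NM_010233, chr1:71632097-71699745, minus strand) encodes fibronectin, an extracellular matrix glycoprotein bound by integrins. It stood at 156.8 RPKM with GFP, 190.7 with SMC1, 168.4 and 166.8 with CAPH2, and 167.1 and 170.6 with SMC2. GFP was the lowest, the condensin libraries lay between 166.8 and 170.6, and SMC1 was the highest at a fold of 1.22 (1.20 to 1.24). The log2 change was 0.096 ± 0.010 with CAPH2 and 0.11 ± 0.022 with SMC2. Of the GENCODE exon bases of Fn1, 3.5% are shared with exons of Apol7d on the other strand, and the library kit does not mark strand.

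Snai1 (NM_011427, chr2:167363727-167368311, plus strand) encodes SNAIL, a zinc finger repressor of Cdh1, and has 1 E-box in the promoter sequence above. Its level was 2.93 RPKM with GFP, 5.31 with SMC1, 3.30 and 3.52 with CAPH2, and 2.35 and 2.75 with SMC2, from 84 to 162 counts. SMC1 lay above the other 5 libraries, with a fold of 1.81 (1.40 to 2.35). The CAPH2 libraries were above GFP and the SMC2 libraries below it, but all 4 intervals against GFP include no change.

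Snai2 (NM_011415, chr16:14705952-14709475, plus strand) encodes SLUG, the closest relative of SNAIL. It was the least counted member, with 29 counts under the GFP hairpin, 48 under SMC1, 38 and 31 under CAPH2, and 39 and 31 under SMC2. In the same order its level was 0.67, 1.24, 0.81, 0.82, 0.86 and 0.76 RPKM. SMC1 was the highest library, at a fold of 1.85 (1.15 to 3.05), and the condensin libraries could not be told from GFP at this depth. The ratio of Snai2 to Snai1 was 22.9% with GFP and 23.4% with SMC1.

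Zeb1 (NM_011546, chr18:5591889-5774909, plus strand) and Zeb2 (NM_015753, chr2:44839154-44968799, minus strand) encode the zinc finger homeobox repressors ZEB1 and ZEB2. Zeb1 stood at 4.06 RPKM with GFP, 5.70 with SMC1, 5.56 and 5.36 with CAPH2, and 5.72 and 5.69 with SMC2. GFP was the lowest library and the other 5 lay between 5.36 and 5.72, so the SMC1 and condensin levels of Zeb1 differed by less than their counting intervals. The log2 change was 0.49 with SMC1 (0.31 to 0.67), 0.43 ± 0.039 with CAPH2 and 0.49 ± 0.0048 with SMC2.

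Zeb2 stood at 0.55 RPKM with GFP, 6.02 with SMC1, 1.61 and 1.21 with CAPH2, and 1.38 and 1.22 with SMC2, from 108 counts in GFP, 1055 in SMC1 and 207 to 343 in the condensin libraries. As for Cdh2, GFP was the lowest library and SMC1 the highest. The fold with SMC1 over GFP was 10.9 (8.96 to 13.5), which was the largest of any member in any library. The log2 change was 1.34 ± 0.30 with CAPH2 and 1.24 ± 0.13 with SMC2, and SMC1 was 4.44-fold higher than the mean of the 4 condensin libraries. Zeb2 RNA was 13.6% of Zeb1 RNA with GFP and 21.4 to 29.0% in the condensin libraries, and with SMC1 it reached 105.6%, the 1 library in which Zeb2 was not the less abundant of the pair. The files count without strand, and 2.42% of the exon bases of Zeb2 are shared with exons of Gm13476, a long noncoding RNA gene on the other strand.

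**Figure D3:**
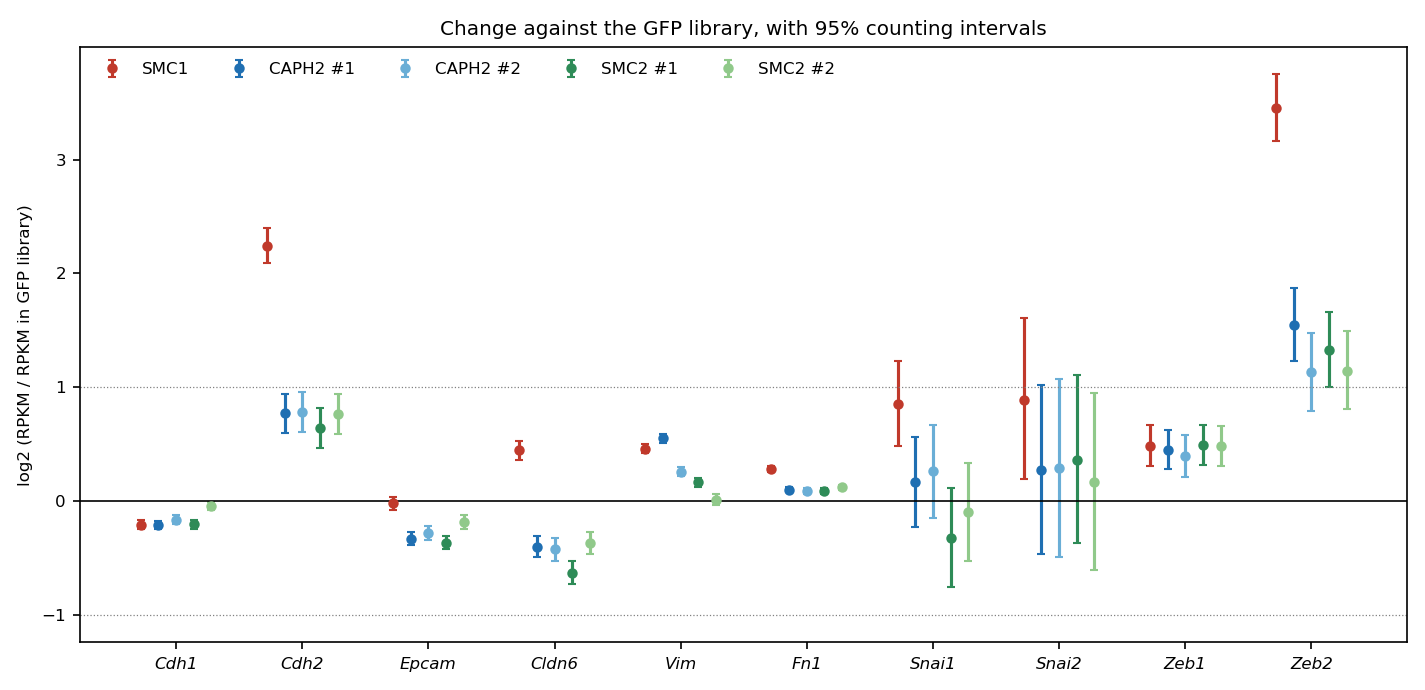
Log2 ratio of RPKM over the GFP library (y axis) for each gene in each knockdown library, with 95% counting intervals as bars and dotted lines at 2-fold. Cdh2 (2.24) and Zeb2 (3.45) with SMC1 stand above the other values, and the Snai1 and Snai2 intervals are the widest.

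Across the members, 6 of 10 (Cdh2, Vim, Fn1, Snai2, Zeb1 and Zeb2) were higher than GFP in all 5 knockdown libraries and 2 (Cdh1 and Epcam) were lower in all 5. Over 18153 transcripts, 28.5% were higher and 28.8% lower in all 5. GFP thus lay outside the range of the other libraries for 8 of 10 members and for 57.3% of transcripts. SMC1 lay outside the range of the other 5 libraries for 7 of 10 members, above it for Cdh2, Cldn6, Fn1, Snai1, Snai2 and Zeb2 and below it for Cdh1. Over all transcripts 72.2% lay outside this range, 38.0% above and 34.3% below, so the members' share of 7 in 10 is close to that of transcripts in general.

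CAPH2 against SMC2 is the 1 contrast with 2 libraries in each group, and there edgeR's quasi-likelihood test with Benjamini-Hochberg adjustment over 18245 transcripts called 0 of 10 members (background 0.00548%, 1 transcript). The smallest adjusted p among members was 0.9995. Before adjustment 2 members had a p under 0.05 (background 3.1%), Vim, lower with SMC2 by a log2 difference of -0.31 (SE 0.095), and Snai1, with a difference of -0.41 (SE 0.18). DESeq2 also called 0 members (background 0.0274%), and 1 had an unadjusted p under 0.05 (1.27%). For Cdh2 the difference was -0.058 (SE 0.090) and for Zeb2 -0.11 (SE 0.16), which leaves differences of the size of these errors undetectable with 2 hairpins a group. Nothing states that hairpins came from separate cultures, so the test measures the spread between these libraries. The log2 difference of Vim was -0.45 without CAPH2 #2 and -0.16 without CAPH2 #1. Each of these fits leaves 1 CAPH2 library, whose spread cannot be measured.

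The other genes of the switch were described from 2 lists of 40 genes each, in which the members were left out. Both lists were chosen with earlier results of these data known, so the shares set beside them are a description and not a test. Of 40 epithelial genes (junction proteins, keratins, splicing and transcription factors), 7 were at least 2-fold higher and 6 at least 2-fold lower with SMC1, beside 12.2% and 8.35% of all transcripts under the same count minimum. Their median log2 change was 0.034, beside 0.031 over all transcripts. Elf3, an epithelial ETS factor, was 33.5 RPKM with GFP, 5.67 with SMC1, 15.2 and 21.4 with CAPH2, and 13.5 and 18.8 with SMC2. The tight junction scaffold gene Tjp3 (log2 change with SMC1 -2.26) and the small GTPase gene Rab25 (-1.93) were also lower in all 5 knockdowns. Among the 7 that were higher with SMC1 were the keratin genes Krt18 (1.36) and Krt8 (1.19), and Dsp (1.15). With CAPH2 and with SMC2, 0 of the 40 were 2-fold higher and 2 were 2-fold lower in each, with medians of -0.18 and -0.34, beside 0.694% and 0.622% of all transcripts 2-fold lower. Of the 40, 18 were lower than GFP in all 5 knockdowns and 4 were higher, beside 28.8% and 28.5% of all transcripts.

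Of 40 mesenchymal genes and regulators, 22 were at least 2-fold higher with SMC1 and 1 was lower, beside 12.2% and 8.35% of all transcripts, with a median log2 change of 1.19. Lox, a collagen crosslinking enzyme, was 8.84 RPKM with GFP, 57.8 with SMC1, 28.2 and 14.2 with CAPH2, and 23.2 and 16.5 with SMC2. Cdh11, a mesenchymal cadherin, was at 0.75 RPKM with GFP and 4.70 with SMC1, the fibrillar collagen gene Col5a2 at 5.36 and 26.5, and the hyaluronan receptor gene Cd44 at 1.52 and 7.33. With CAPH2, 4 of the 40 were 2-fold higher and 0 lower (median 0.40), and with SMC2 3 were higher and 0 lower (median 0.25), beside 2.1% and 1.52% of all transcripts higher. The CAPH2 count was not shared by the hairpins, since 9 of the 40 were 2-fold higher in CAPH2 #1 (median 0.67) and 0 in CAPH2 #2 (median 0.24). The SMC2 hairpins also differed, with 4 in SMC2 #1 (median 0.29) and 1 in SMC2 #2 (median 0.21). The share over all transcripts was not computed for single libraries. Among the 10 members, Zeb2 was the 1 past 2-fold in each CAPH2 library, 2.93-fold higher in CAPH2 #1 and 2.19-fold in CAPH2 #2. Of the 6 precursors of microRNAs that target Zeb1 and Zeb2, Mir200a, Mir200c, Mir141 and Mir205 were at 0 counts in all 6 libraries. Mir200b and Mir429 had at most 1 count in any library, so these libraries hold no information on the family.

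**Figure D4:**
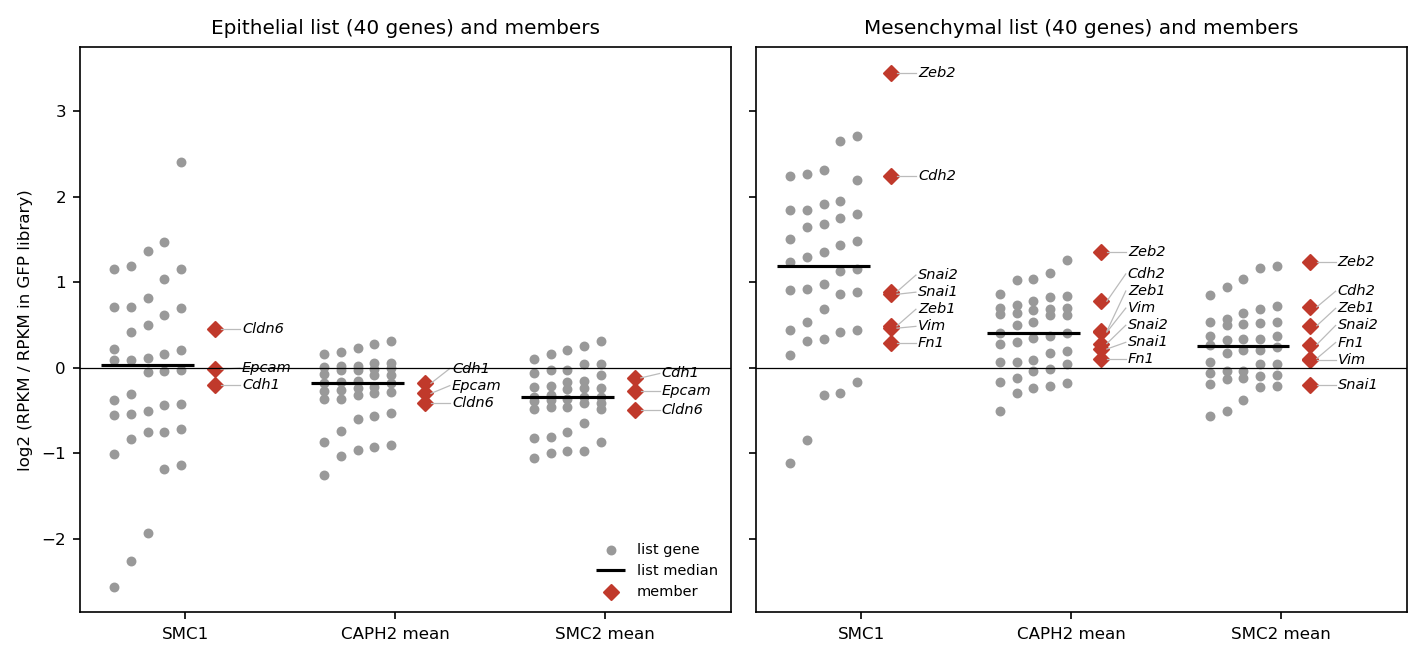
Log2 ratio over the GFP library (y axis) of 40 epithelial genes (left) and 40 mesenchymal genes (right) as grey points, their median as a black line, and the 10 members as labelled diamonds, for SMC1 and for the means of the CAPH2 and SMC2 hairpins. The mesenchymal median was 1.19 with SMC1, 0.40 with CAPH2 and 0.25 with SMC2, while the epithelial medians were 0.034, -0.18 and -0.34.

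Markers of other cell types were measured beside these results, since feeder fibroblasts and differentiated cells both express Vim, Fn1 and Cdh2. In bulk RNA, more cells of a type and more RNA per cell cannot be told apart. The summed level of 11 of 12 fibroblast markers matched was 48.4 RPKM with GFP, 97.2 with SMC1, 75.8 and 52.5 with CAPH2, and 58.9 and 52.5 with SMC2. Of these 11 markers, 9 had a mean of at least 10 counts, and of the 9, 4 were at least 2-fold higher with SMC1 and 0 lower. Beside these, 12.2% of all transcripts were higher and 8.35% lower. Dcn (1 to 19 counts) and Lum (0 to 5 counts) were below that minimum, and each was highest with SMC1. CAPH2 #1 had both the highest Vim and the second highest fibroblast sum, and a part of fibroblast RNA in the Vim and mesenchymal list values was not tested. Of the mesenchymal list, 5 genes are also fibroblast markers, and the 35 others had a median of 1.23 with SMC1, 0.34 with CAPH2 and 0.24 with SMC2.

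The summed level of 10 ESC markers was 3995 RPKM with GFP, 2120 with SMC1 and 3276 to 3494 in the condensin libraries, and 7 of the 10 were at least 2-fold lower with SMC1. The sum of 16 primitive and parietal endoderm markers was 251.6 RPKM with GFP, 458.2 with SMC1 and 248.6 to 298.6 in the condensin libraries. Sparc, which is also in the mesenchymal list, led this sum at 171.2 RPKM with GFP and 276.6 with SMC1. Of the 14 endoderm markers with a mean of at least 10 counts, 6 were at least 2-fold higher with SMC1 and 1 lower. Beside these, 12.2% of all transcripts were higher and 8.35% lower. The sum of 8 neural markers was 108.0 with GFP, 146.9 with SMC1 and 108.9 to 124.9 in the others, that of 7 mesendoderm markers 20.9, 32.5 and 22.1 to 34.0, and that of 8 trophectoderm markers 74.3, 24.6 and 61.5 to 65.2. A sum is led by its most abundant genes. The trophectoderm sum followed Tfap2c, at 51.2 RPKM with GFP and 5.85 with SMC1, and Tead4, Hand1 and Eomes were also lower with SMC1. Cdx2 was higher with SMC1 (0.33 and 2.59 RPKM), as were Gata3 and Krt7. Over the 7 trophectoderm markers with a mean of at least 10 counts, the median log2 change with SMC1 was -0.55. Of the neural markers, 5 of 8 were at least 2-fold higher with SMC1 (median log2 change 1.27), while Tubb3, the most abundant, was 69.7 RPKM with GFP and 58.4 with SMC1. Their part in the Cdh2 and Zeb2 values was not tested.

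**Figure D5:**
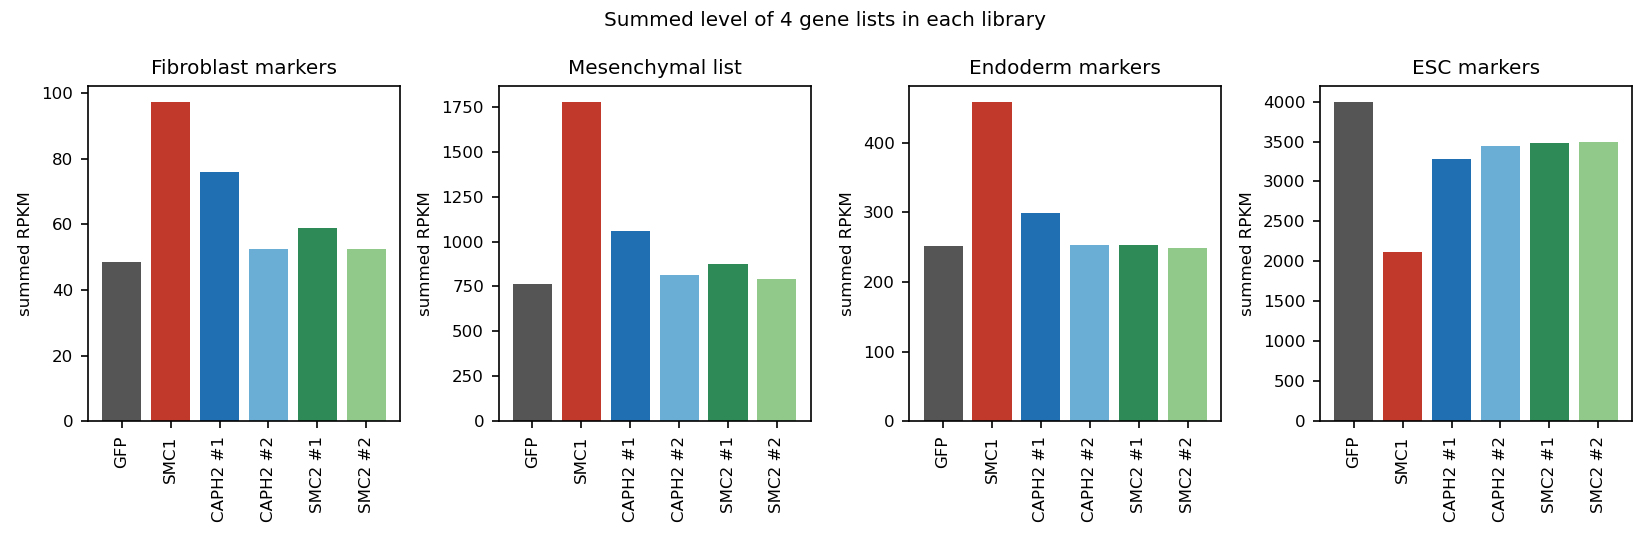
Summed RPKM (y axis, from 0) of the fibroblast markers, the mesenchymal list, the endoderm markers and the ESC markers in each library. The first 3 sums were highest with SMC1 (97.2, 1777 and 458.2 RPKM) and the ESC marker sum was lowest there (2120 RPKM). The mesenchymal list shares 5 genes with the fibroblast markers and 1, Sparc, with the endoderm markers.

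The genes with the profile most like a member over the 6 libraries were found among 11126 genes by the Euclidean distance between centred log2 levels. For Cdh2 they were Plagl1 (distance 0.13, Pearson's r 0.998) and Pde5a (0.14), and for Zeb2 Nefm (0.39, r 0.991) and Pcdh18 (0.40). For Snai1 they were Rhob and Rnf128, for Cldn6 Pld2 and P4ha2, and for Vim Gpc4 and Rnf25. For Cdh1 they were Sipa1l3 and Yeats4, for Epcam Plpp5 and Trabd, for Fn1 Slain2 and Brd3, and for Zeb1 Dmxl2 and Ppig. The points are 6 libraries that share depth and scaling across genes, and a closest match among 11126 genes is a description only.

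The targeted genes had lower RPKM with their own hairpins. Smc1a was 36.1 RPKM with GFP and 14.4 with SMC1, Ncaph2, which encodes CAPH2, was 80.2 with GFP and 16.9 and 27.9 with its hairpins, and Smc2 was 26.6 with GFP and 18.8 and 19.1 with its hairpins. The ERCC spike-in RNAs, added by cell number, gave another scale. On it each log2 change was larger by 0.86 in SMC1, 0.63 in CAPH2 #1, 0.64 in SMC2 #1 and 0.57 in SMC2 #2, and smaller by 0.047 in CAPH2 #2. On that scale Cdh1 and Epcam were above GFP in every knockdown library other than CAPH2 #2, while Cdh2 and Zeb2 stayed above GFP in all 5. Cldn6 turned from below to above GFP in CAPH2 #1 and both SMC2 libraries, and Snai1 in both SMC2 libraries. No member changed direction in CAPH2 #2. The targeted gene Smc2 also turned on that scale, to log2 changes of 0.14 and 0.091 with its own hairpins. The ratios between genes do not depend on the scale.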

How the data were processed

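RNA-seq of 6 libraries was used, with groups taken from the sample labels. The authors aligned reads to mm9 with Bowtie, took exonic counts with RPKM_count 2.3.5, and deposited these counts for each RefSeq transcript with RPKM values. RPKM divides by exon length and by the reads of the library (18823248 to 23324537) and makes no use of the ERCC spike-ins, so it shows shares of a library's RNA and not amounts per cell. Members and lists were chosen with earlier results of these data known. Each gene is the transcript row with most counts over the 6 libraries, of 25353 rows with a symbol, and members are named in full. From the epithelial and mesenchymal lists, the 4 genes with the largest absolute log2 change with SMC1 and a mean of at least 50 counts were named, and microRNA precursors at 0 counts in every library. A result for 1 gene that this rule names is left out of the text. Dcn, Lum, Sparc, Tfap2c, Tead4, Hand1, Eomes, Cdx2, Gata3, Krt7, Tubb3, Krt8, Krt18 and Dsp were named after their values were seen. Counts of 2-fold members used the log2 ratio of the mean RPKM over hairpins to GFP, with no pseudocount, for rows that reached 1 RPKM in GFP. Counts that name the count minimum, and those of the lists, used rows with a mean of at least 10 counts. Log2 changes with an SD are means of the log2 changes of single hairpins. The CAPH2 numbers follow the hairpin identifiers in the study's methods. Profiles were compared with a pseudocount of 0.1 RPKM among genes with a mean of at least 100 counts. Intervals were exact binomial (95%). CAPH2 against SMC2 was tested with edgeR 4.0.16 (TMM, at least 10 counts in at least 2 libraries), tested on simulated data, with DESeq2 1.42.0 as an alternative, in R 4.3.3. Other steps used Python 3.11.15. The alternatives were other scalings (TMM, DESeq2 size factors, ERCC counts), filters, thresholds, a pseudocount of 1 RPKM and leaving out each hairpin.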

Additional observations from a re-analysis of the deposited data

Results flagged for a closer look

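For Cldn6, all CAPH2 and SMC2 libraries were below GFP and the SMC1 library above it. The log2 change with SMC1 exceeded that with CAPH2 by 0.86 and that with SMC2 by 0.94. For Snai1, the SMC1 library was above GFP and both SMC2 libraries below it, a difference of 1.06 in log2 change, and the CAPH2 libraries lay above GFP where the SMC2 libraries lay below, a difference of 0.42. The first 3 differences were not tested, since SMC1 and GFP have 1 library each. The last is the edgeR contrast with an unadjusted p of 0.047 and an adjusted p of 0.9995. On the ERCC scale the opposite directions of Cldn6 and Snai1 were no longer seen, other than for Cldn6 in CAPH2 #2.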

How the results depend on the processing

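Under TMM scaling, DESeq2 size factors and a pseudocount of 1 RPKM, the counts of 2-fold members stayed at 1 of 8 with SMC1, 0 of 8 with CAPH2 and 0 of 8 with SMC2, and all members have 1 row, so another isoform row changed nothing. Zeb2 was not among these 8. With the pseudocount its log2 change went from 3.45 to 2.18 with SMC1. It went from 1.36 to 0.64 with CAPH2 and from 1.24 to 0.57 with SMC2, both then below 2-fold. Under ERCC scaling the counts were 6 of 8 with SMC1, 1 of 8 with CAPH2 and 2 of 8 with SMC2, and with the count minimum as well, chosen after seeing the data, 8, 2 and 3 of 10. This scaling shifts all transcripts of a library alike, by a log2 of 0.86 with SMC1. The minimum of 10 counts, or no minimum, which each admit Zeb2, gave 2, 1 and 1 of 10. A 1.5-fold threshold gave 2, 1 and 1 of 8. With the mean of the condensin libraries in place of GFP, also chosen after seeing the data, SMC1 had 1 of 8, and 2 of 10 under the count minimum. Shares over all transcripts were not computed for ERCC scaling, for the 1.5-fold threshold or for no minimum. Nor were they computed for the condensin mean under the RPKM minimum. The counts in those settings are therefore not a result about the members. Of single values for members, 25 stayed within the error and 15 moved with SMC1, 43 and 17 with CAPH2, and 45 and 15 with SMC2. While 0 called values reversed, values below 2-fold did change sign under ERCC scaling. They were those of Cdh1 and Epcam with SMC1, CAPH2 and SMC2, and of Cldn6 and Snai1 with SMC2. The log2 change of Cdh1 with SMC1, for example, went from -0.20 to 0.66. In CAPH2 against SMC2 the members called ranged from 0 to 1 when 1 hairpin was left out, the 1 being Vim without CAPH2 #2, where all transcripts called numbered 404 against 1. The lone library of a group was then assumed to vary like the other group. With the replicate numbers of the labels as a block, 0 members were called and Vim had an adjusted p of 0.0822, with 15 transcripts called in all. The deviations of same-numbered libraries correlated at 0.0488, so the numbers did not pair the hairpins. Snai1 and Snai2, with 84 to 162 and 29 to 48 counts, and Zeb2 in GFP, with 108, are limited by depth.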
